A study of Homo sapiens with 4 samples.

Results

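The human mitochondrial chromosome carries 37 genes, of which 13 encode mRNAs, 2 encode rRNAs and 22 encode tRNAs. All genes of that chromosome (gene names starting with MT-) were taken, out of 58735 genes in the deposited tables, whatever their values. They were measured by RNA-seq in H1299, an established human non-small-cell lung carcinoma line, with 2 libraries per group and 4 in all. Cells of one group were exposed for 48 h to methylparaben (0.5 mM), the methyl ester of a hydroxybenzoic acid and a common preservative. Cells of the other group were ethanol controls, and the labels state neither their ethanol dose nor their exposure time. Total RNA was enriched for poly(A) RNA on beads. The comparison asks which mitochondrial transcripts differ between methylparaben-treated and ethanol-treated cells. Library totals were 3760982 and 2068486 counts in the methylparaben libraries and 2368658 and 2182058 counts in the ethanol libraries. Nothing in the labels ties replicates to independent cultures. The p-values therefore reflect only the spread among these libraries, which may be technical. The blood, hepatocyte and differentiated lung markers looked for had 0 counts in all 4 libraries, and AXL, a receptor tyrosine kinase of mesenchymal cells, had 2201 and 1021 counts with methylparaben and 2946 and 4083 with ethanol. Of 6 epithelial markers EPCAM, CDH1 and KRT19 were at 0, and the other 3 summed to 15.4 and 13.5 CPM with methylparaben and 16.9 and 9.62 CPM with ethanol. The 6 mesenchymal markers summed to 629 and 530 CPM with methylparaben and 1378 and 1979 CPM with ethanol. Most of that sum was AXL, with 585 and 494 CPM with methylparaben and 1244 and 1871 CPM with ethanol, while CDH2 had 1 count in one library and ZEB1 at most 3 in any, and the part of this difference in the results was not tested. Every annotated transcript lacking a base unshared with other transcripts had 0 counts, so a gene listed at 0 need not be silent.

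Mitochondrial DNA is transcribed from promoters in its noncoding control region into long RNAs that span most of a strand. The tRNAs lie between the other genes, and their excision releases the rRNAs and mRNAs, most of which then receive a poly(A) tail. The mRNAs encode core subunits of the respiratory chain and ATP synthase, and the rRNAs form the mitochondrial ribosome that translates them. RNAs from one strand are thus made together, and their levels also depend on processing and stability.

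Sequences bear on how these genes can be counted and are given from the GENCODE release 29 transcripts (GRCh38), which hold all 37 genes at the coordinates of the deposited table. Several mRNAs end inside a stop codon that only the poly(A) tail completes. The last 24 bases of the annotated sense strand are shown for the mRNAs with the largest and smallest changes and for MT-ND6, the minus-strand mRNA, with the final complete codon or the incomplete one in capitals.
MT-ATP8: cattcattgcccccacaatccTAG
MT-ATP6: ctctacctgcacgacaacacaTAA
MT-CO3: tctccatctattgatgagggtctT
MT-ND2: ccccttttatactaataatcttaT
MT-CYB: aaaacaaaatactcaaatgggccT
MT-CO1: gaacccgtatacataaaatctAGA
MT-ND5: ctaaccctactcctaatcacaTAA
MT-ND6: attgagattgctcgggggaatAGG

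MT-ATP8 and MT-ATP6 lie on one bicistronic mRNA and share 46 bases (MT, positions 8527 to 8572, plus strand), shown with the start codon of MT-ATP6 and the stop codon of MT-ATP8 in capitals. The tRNA gene MT-TP (positions 15956 to 16023, minus strand), which borders the control region, is shown because it was the tRNA with nearly all tRNA counts.
MT-ATP8/MT-ATP6: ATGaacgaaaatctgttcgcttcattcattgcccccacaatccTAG
MT-TP: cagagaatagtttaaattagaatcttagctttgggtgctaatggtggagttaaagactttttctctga
Outside the shared bases MT-ATP8 has 161 of its 207 bases to itself and MT-ATP6 634 of its 681. MT-ND4L and MT-ND4 share 7 bases, MT-ATP6 and MT-CO3 share 1, and the other mRNAs and both rRNAs share none.

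The mitochondrial chromosome changed in opposite directions by class of RNA. The 13 mRNAs held 7.28% and 8.61% of all counts with methylparaben and 18.8% and 16.4% with ethanol. The 2 rRNAs held 10.5% and 9.75% with methylparaben and 4.71% and 4.12% with ethanol. The groups did not overlap in either class. Transcripts without a base of their own had 0 counts, while every mitochondrial gene has bases of its own. These are thus shares of the counts given, which need not be shares of the RNA in the cells. All 37 genes together held 18.3 ± 0.372% of the counts with methylparaben and 22.1 ± 2.14% with ethanol (SD, n = 2 each), so the total differed less than either class. Within the chromosome the ratio of rRNA to mRNA counts, which does not depend on library scaling, was 1.44 and 1.13 with methylparaben, against 0.250 and 0.251 with ethanol. These counts came from poly(A)-selected RNA, and the part of poly(A) capture in this ratio was not tested. The 2 methylparaben libraries had the highest and the lowest total count of the study, and the part of library depth or preparation in the ratio was not tested. An exact permutation test of 2 against 2 libraries cannot give a two-sided p below 0.333, so no test is given for these shares. In bulk RNA, fewer cells of a type and less RNA per cell cannot be told apart.

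**Figure D1:**
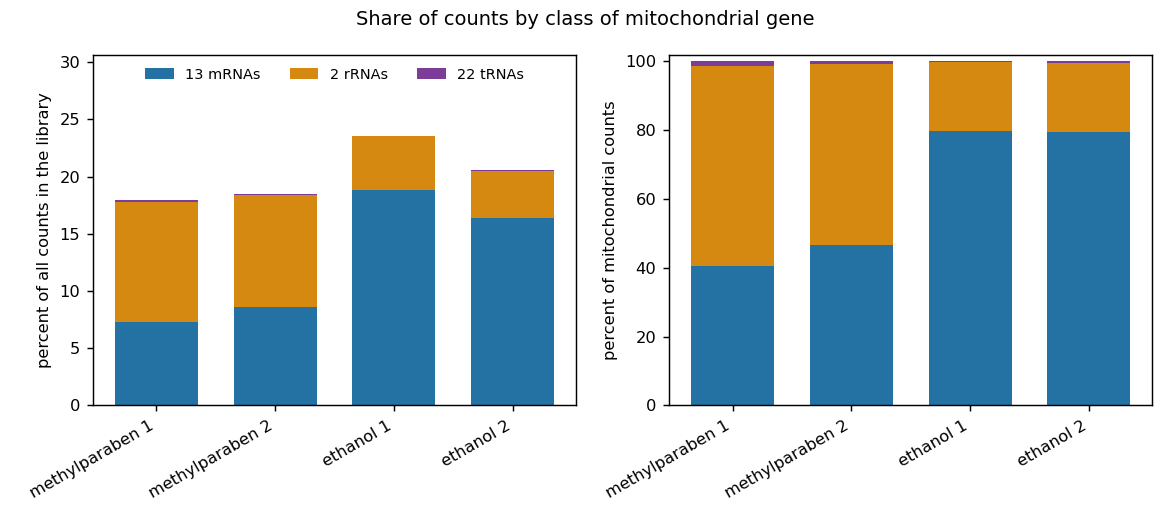
Stacked bars give the share of counts held by the 13 mRNAs, 2 rRNAs and 22 tRNAs in each of the 4 libraries, as percent of all counts (left) and as percent of mitochondrial counts (right). The mRNAs held 40.5% and 46.5% of mitochondrial counts with methylparaben and 79.8% and 79.6% with ethanol.

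Genes were tested across all 8055 genes that passed a filter on low counts, with edgeR's quasi-likelihood test (two-sided, Benjamini-Hochberg adjusted p under 0.05), and 17 of the 37 mitochondrial genes passed that filter. Of the 13 mRNAs 12 fell and 0 rose, both rRNAs rose, and of 2 tested tRNAs 1 rose and 0 fell. Over all tested genes 36.9% were called, 18.4% as lower and 18.5% as higher. The median log2 fold change of methylparaben over ethanol was -1.32 over the 13 mRNAs and 0.03 over all tested genes. Levels of single genes are in CPM, counts scaled to library depth with TMM factors, and the error after each log2 fold change is its SE. Scaling with RLE, upper quartile or nuclear-gene factors kept the median over all genes within 0.1 of its value, and without any scaling factor it was -0.08. No tested mitochondrial gene changed direction under these scalings. Relative to the total of the 13 mRNAs, a scaling described with the shares of the mRNAs, the median over all genes was 1.08, and of the mRNAs MT-ND1, MT-CO1, MT-ND4, MT-ND5 and MT-ND6 changed sign.

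**Figure D2:**
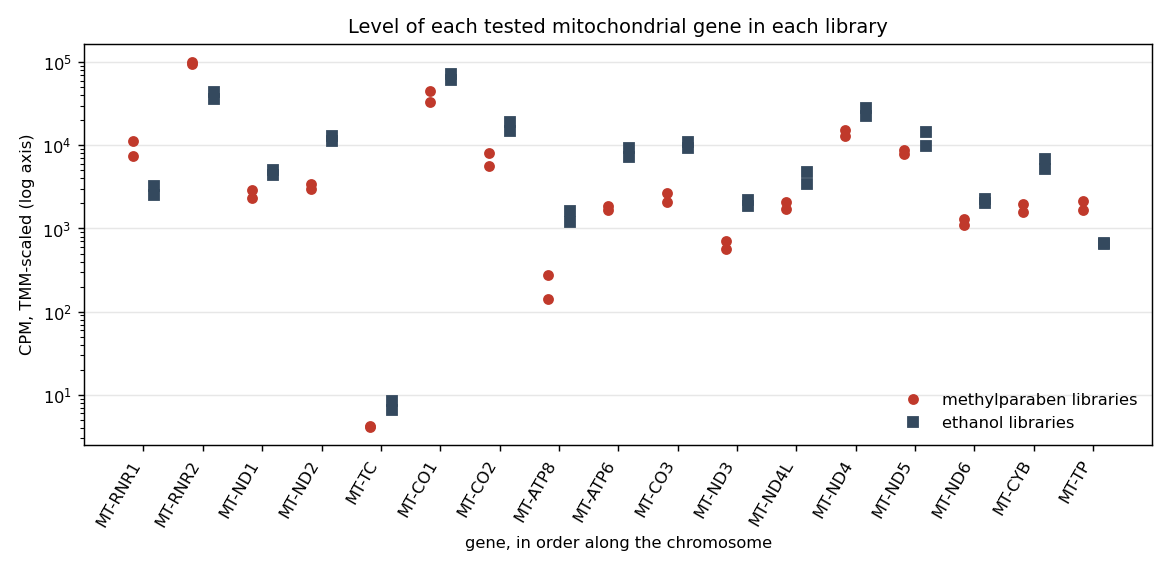
Points give the CPM of each tested mitochondrial gene on a log axis, with methylparaben libraries as circles and ethanol libraries as squares, in gene order. Both methylparaben points lie below both ethanol points for every mRNA and for MT-TC, and above them for MT-RNR1, MT-RNR2 and MT-TP, while of all tested genes 35% lie wholly below and 35.5% wholly above.

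Both genes for subunits of ATP synthase (complex V) fell, where 18.4% of all tested genes fell. These were the decreases of greatest size among the mRNAs. MT-ATP8, a small subunit of the membrane part, had 278 and 142 CPM in the methylparaben libraries and 1636 and 1201 CPM in the ethanol libraries. Its log2 fold change was -2.75 ± 0.30 (adjusted p = 0.000224), which is 6.70-fold lower. MT-ATP6, which forms part of the proton channel, had 1669 and 1850 CPM with methylparaben and 9180 and 7231 CPM with ethanol, a log2 fold change of -2.22 ± 0.20 (adjusted p = 8.86e-05). The methylparaben libraries spread more for MT-ATP8 (210.1 ± 95.8 CPM, SD, n = 2) than for MT-ATP6 (1759 ± 128 CPM, SD, n = 2), and neither gene's groups overlapped. The FPKM ratio of MT-ATP6 to MT-ATP8, 2 reading frames of one mRNA, was 1.83 and 3.95 with methylparaben and 1.71 and 1.83 with ethanol. This ratio overlapped between the groups, and only methylparaben replicate 2, with 272 counts of MT-ATP8, stood apart.

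The 3 subunits of cytochrome c oxidase (complex IV), the enzyme that passes electrons to oxygen, all fell, but by unequal amounts. Of all tested genes 18.4% fell. MT-CO3 had 2089 and 2674 CPM with methylparaben and 10941 and 9336 CPM with ethanol, a log2 fold change of -2.09 ± 0.20 (adjusted p = 0.000130). MT-CO2, which holds the copper site that accepts electrons from cytochrome c, had 5640 and 8029 CPM with methylparaben and 19114 and 14977 CPM with ethanol, a log2 fold change of -1.32 ± 0.23 (adjusted p = 0.00220). MT-CO1, which holds the catalytic site, had 32895 and 44746 CPM with methylparaben and 71984 and 61018 CPM with ethanol. The groups did not overlap for MT-CO1, whose log2 fold change was -0.78 ± 0.23 (adjusted p = 0.0254). Without ethanol replicate 1 its adjusted p was 0.188, and without ethanol replicate 2 it was 0.0676.

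MT-CYB, cytochrome b, is the only mitochondrially encoded subunit of complex III. It had 1600 and 1954 CPM in the methylparaben libraries and 6767 and 5203 CPM in the ethanol libraries. The log2 fold change was -1.75 ± 0.20 (adjusted p = 0.000296), a decrease of 3.37-fold.

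Of the 7 complex I subunits, which belong to the membrane arm of the enzyme that oxidises NADH, 6 fell and 0 rose. Over all tested genes 18.4% fell and 18.5% rose. MT-ND2 had 3003 and 3451 CPM with methylparaben and 12969 and 11142 CPM with ethanol, a log2 fold change of -1.90 ± 0.19 (adjusted p = 0.000152). MT-ND3 had 703 and 566 CPM with methylparaben and 1860 and 2204 CPM with ethanol, a log2 fold change of -1.68 ± 0.19 (adjusted p = 0.000243). MT-ND4L had 2063 and 1702 CPM with methylparaben and 4776 and 3426 CPM with ethanol, a log2 fold change of -1.12 ± 0.21 (adjusted p = 0.00293). In these 3 genes both methylparaben libraries lay below both ethanol libraries, as they did in 35% of all tested genes.

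The remaining complex I genes had smaller differences. MT-ND4 had 13076 and 15277 CPM with methylparaben and 28512 and 22701 CPM with ethanol, a log2 fold change of -0.85 ± 0.21 (adjusted p = 0.0103, and 0.122 without ethanol replicate 1). MT-ND1 had 2332 and 2891 CPM with methylparaben and 5026 and 4380 CPM with ethanol, a log2 fold change of -0.85 ± 0.18 (adjusted p = 0.00649, and 0.0693 without ethanol replicate 1). MT-ND6 is the only mRNA annotated on the minus strand, and its counts cannot be told apart from antisense RNA because the use of strand in counting is not given. It had 1290 and 1089 CPM with methylparaben and 2274 and 2052 CPM with ethanol, a log2 fold change of -0.86 ± 0.17 (adjusted p = 0.00421). MT-ND5 was the one mRNA that did not pass. It had 7910 and 8838 CPM with methylparaben and 14521 and 9765 CPM with ethanol, a log2 fold change of -0.54 ± 0.22 (adjusted p = 0.0821). It passed with DESeq2 (adjusted p = 0.0345). Its log2 fold change was -0.46 without methylparaben replicate 1 and -0.59 without methylparaben replicate 2, fits that leave 1 library in that group. Without ethanol replicate 1 its log2 fold change was -0.24 (adjusted p = 0.565), and without ethanol replicate 2 it was -0.78 (adjusted p = 0.0621).

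**Figure D3:**
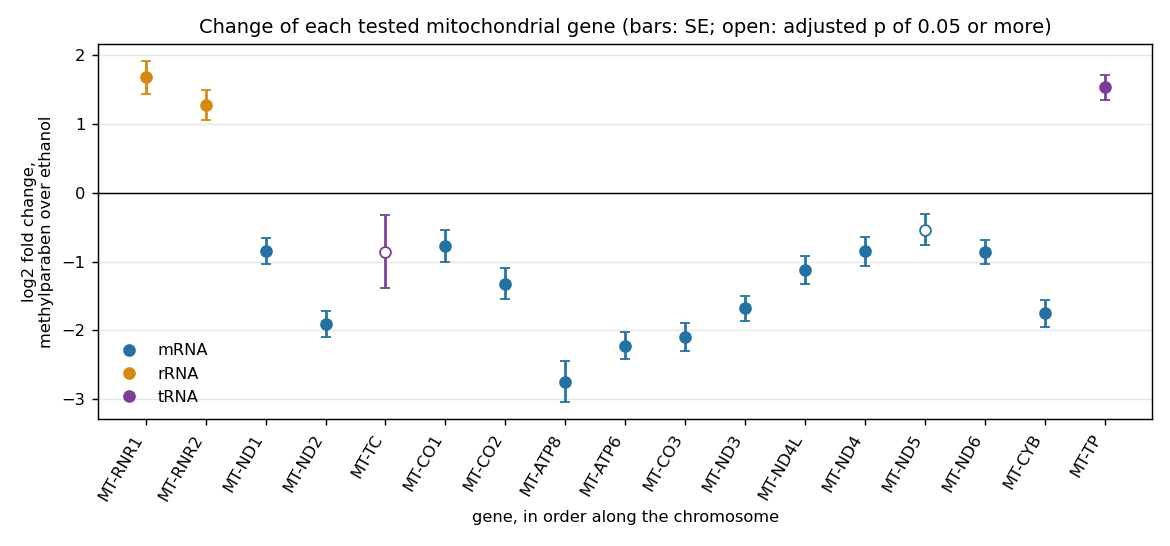
Points give the log2 fold change of methylparaben over ethanol with its SE for the 17 tested genes in their order along the chromosome, coloured by class, with open points for an adjusted p of 0.05 or more. The rRNAs and MT-TP lie above 0, and the mRNAs reach from -2.75 at MT-ATP8 to -0.54 at MT-ND5.

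The size of the decrease varied along the chromosome. MT-CO2, MT-ATP8, MT-ATP6, MT-CO3, MT-ND3, MT-ND4L, MT-ND4 and MT-ND5 follow each other with only tRNA genes between them. Their log2 fold changes were -1.32, -2.75, -2.22, -2.09, -1.68, -1.12, -0.85 and -0.54 in that order. The lowest values thus belonged to the adjacent MT-ATP8, MT-ATP6 and MT-CO3, and the sizes became smaller gene by gene from there to MT-ND5. MT-ND1, MT-ND2 and MT-CO1 precede MT-CO2, also with only tRNA genes between them. They were at -0.85, -1.90 and -0.78, so no such order held there. MT-ND6 and MT-CYB, which follow MT-ND5, were at -0.86 and -1.75. MT-ATP6 and MT-CO3 differed by less than their SE. This order was read after the values were seen and was not tested.

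The 6 mRNAs with an incomplete stop codon had a median log2 fold change of -1.72 (range -2.09 to -0.85), and the 7 with a complete one a median of -1.12 (range -2.75 to -0.54). The ranges overlapped. MT-ND6 and MT-CO1, whose reading frames end in AGG and AGA, were both among the mRNAs with smaller decreases, at -0.86 and -0.78. MT-ND1, MT-ND4 and MT-ND5, with other ends, were at -0.85, -0.85 and -0.54. The grouping by stop codon was not tested.

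Shares within the 13 mRNAs show which genes departed from the class as a whole. Scaled to the total count of the 13 mRNAs, and in the fit over all 8055 genes, 5 of 13 were lower than that total and 0 were higher. With this scaling 57.6% of all genes were called, 4.44% as lower and 53.1% as higher. MT-ATP8 made up 0.373% and 0.153% of mRNA counts with methylparaben and 0.863% and 0.776% with ethanol (log2 fold change relative to the total -1.64 ± 0.35, adjusted p = 1.63e-05). MT-ATP6, MT-CO3, MT-ND2 and MT-CYB were at -1.17 ± 0.29, -1.06 ± 0.29, -0.86 ± 0.28 and -0.71 ± 0.30 relative to the total, with adjusted p from 0.000287 for MT-ATP6 to 0.0327 for MT-CYB. Without ethanol replicate 1, or without ethanol replicate 2, only MT-ATP8 of the 13 passed (adjusted p = 0.0409 and 0.0171). The other adjusted p were then 0.112 or more without replicate 1 and 0.0796 or more without replicate 2. MT-CO1 dominates the total, with 44.1% and 48.0% of mRNA counts with methylparaben and 38.0% and 39.5% with ethanol. Its own departure did not pass (0.25 ± 0.22, adjusted p = 0.322). MT-ND5 made up 10.6% and 9.48% of mRNA counts with methylparaben and 7.66% and 6.31% with ethanol (0.52 ± 0.27, adjusted p = 0.0785).

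**Figure D4:**
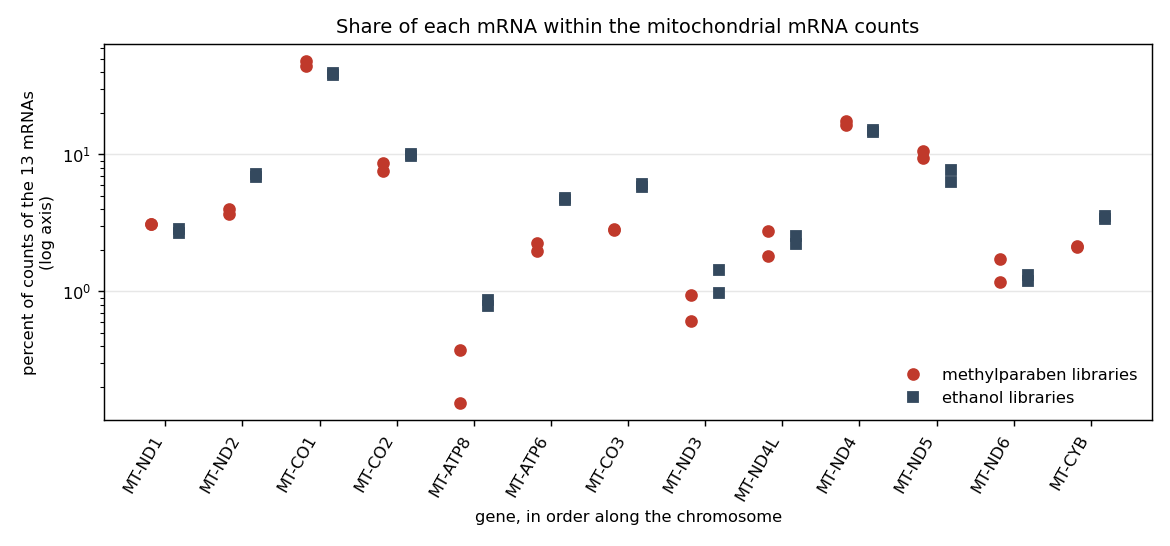
Points give each mRNA's share of the counts of all 13 mitochondrial mRNAs on a log axis, with methylparaben libraries as circles and ethanol libraries as squares. The groups do not overlap for 11 of the 13 mRNAs, with MT-ND4L and MT-ND6 as the exceptions, against 78.9% of all tested genes on the same scale, and the shares of MT-ATP8, MT-ATP6, MT-CO3, MT-ND2 and MT-CYB are lower with methylparaben.

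By complex, the mRNAs of complex V made up 2.61% and 2.14% of mRNA counts with methylparaben and 5.71% and 5.45% with ethanol. Complex III made up 2.15% and 2.10% with methylparaben and 3.57% and 3.36% with ethanol. Complex I made up 40.7% and 36.3% with methylparaben and 36.9% and 36.0% with ethanol, and complex IV 54.5% and 59.5% with methylparaben and 53.8% and 55.2% with ethanol, so the groups overlapped for these last complexes.

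Levels between genes can be compared per length, on the authors' FPKM values, which divide by transcript length and library depth. MT-CO1 was the highest mRNA in both groups, with 23907 ± 4662 FPKM with methylparaben and 42768 ± 3661 FPKM with ethanol (SD, n = 2). In the methylparaben libraries MT-ND4 (9780 ± 867 FPKM) and MT-CO2 (9486 ± 2148 FPKM) came next and did not differ beyond their spread. MT-ATP8 (971 ± 461 FPKM) was then the lowest mRNA, close to MT-CYB (1480 ± 177 FPKM). In the ethanol libraries MT-CO2 (24692 ± 3478 FPKM) and MT-ND4 (18415 ± 2387 FPKM) followed MT-CO1, MT-ATP8 (6783 ± 1264 FPKM) was eighth, and MT-ND6 (4089 ± 170.0 FPKM) was lowest. The highest mean was 24.6 times the lowest with methylparaben and 10.5 times with ethanol. The FPKM use the full listed length, of which 46 bases of MT-ATP8 are shared with MT-ATP6.

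The rRNAs moved the other way. MT-RNR2, the large-subunit 16S rRNA (MT, positions 1671 to 3229), had 100040 and 94456 CPM in the methylparaben libraries and 44110 and 36372 CPM in the ethanol libraries, and alone held 9.78% and 8.73% of all counts with methylparaben and 4.38% and 3.85% with ethanol. Its log2 fold change was 1.27 ± 0.22 (adjusted p = 0.00208). MT-RNR1, the small-subunit 12S rRNA (positions 648 to 1601), had 7382 and 11139 CPM with methylparaben and 3288 and 2513 CPM with ethanol, a log2 fold change of 1.67 ± 0.24 (adjusted p = 0.000776). Both rRNAs were higher in both methylparaben libraries than in either ethanol library, as were 35.5% of all tested genes. The fitted group folds were 2.42 for MT-RNR2 and 3.19 for MT-RNR1. The ratio of MT-RNR2 to MT-RNR1 counts was 13.6 and 8.48 with methylparaben and 13.4 and 14.5 with ethanol and overlapped between the groups. As background, mitochondrial rRNAs carry short adenine tails, and these libraries were made from poly(A)-selected RNA. The part of poly(A) capture in the rRNA differences was not tested.

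Most tRNAs could not be read. Of 22, 14 had 0 counts in all 4 libraries, which at 3 counts per library allows up to 0.798 and 1.45 CPM in the methylparaben libraries and 1.27 and 1.37 CPM in the ethanol libraries, before scaling and for counting error only. Counts were seen for 1 of 14 plus-strand and 7 of 8 minus-strand tRNA genes. Of the 14 at 0, 12 had another annotated gene within 3 bases on both sides, whereas 7 of the 8 with counts had a wider gap or the control region on 1 side. MT-TF, MT-TQ, MT-TA, MT-TN, MT-TY and MT-TE had 2 to 34 counts over the 4 libraries, at most 14 in one library, and were not tested. MT-TC, the tRNA for cysteine beside the origin of light-strand replication, had 4.08 and 4.19 CPM with methylparaben and 8.51 and 6.49 CPM with ethanol, a log2 fold change of -0.85 ± 0.53 (adjusted p = 0.228).

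MT-TP, the tRNA for proline, was the exception. It had 7924 and 3209 counts in the methylparaben libraries and 1589 and 1499 counts in the ethanol libraries, and took 99.3% and 99.7% of all tRNA counts with methylparaben and 97.8% and 96.5% with ethanol. The other 21 tRNA genes together had 53 and 11 counts with methylparaben and 35 and 54 with ethanol. In CPM, MT-TP stood at 2156 and 1679 with methylparaben and 676 and 649 with ethanol, a log2 fold change of 1.53 ± 0.18 (adjusted p = 0.000320), so it moved with the rRNAs and not with the mRNAs. It lies on the minus strand, 2 bases from MT-TT on one side and next to the control region on the other. Reads there cannot be told apart from RNA of the opposite strand or from control-region RNA. In the authors' deposited table, the 13 mRNAs, both rRNAs and MT-TP are the 16 members listed with an adjusted p of 0, and the other 21 members are listed at 0.837. MT-ND5 is thus listed at 0 there, while its adjusted p in the edgeR test was 0.0821. The share of all transcripts that the authors list at 0 was not computed, so their count of members has no background beside it.

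Nuclear copies of mitochondrial DNA can take reads that belong to the chromosome. The table holds 407 such genes, pseudogenes and MTRNR2L genes named after an mRNA or rRNA gene, of which 79 had a count and 13 were tested. Together they held 0.232% and 0.316% of all counts with methylparaben and 0.587% and 0.548% with ethanol, far below the mitochondrial genes themselves. Of the 13 tested, 8 fell and 0 rose, where 18.4% of all tested genes fell and 18.5% rose. The 4 with most counts lie near each other on chromosome 1 (GRCh38). MTCO1P12 (631074 to 632616), 98.6% identical to MT-CO1 over their alignment, had 6491 and 5479 counts with methylparaben and 8567 and 6906 with ethanol, and was at -0.52 ± 0.23 (adjusted p = 0.109). MTND2P28 was at -1.91 ± 0.22 (adjusted p = 0.000320), beside -1.90 for MT-ND2. MTATP6P1 was at -2.76 ± 0.24 (adjusted p = 8.79e-05), beside -2.22 for MT-ATP6, and MTCO3P12 at -2.97 ± 0.26 (adjusted p = 8.35e-05), beside -2.09 for MT-CO3. These last 3 copies are 98.2% to 98.5% identical to the genes they copy, and reads of a copy and its gene can be misassigned. Adding the copies to the genes they copy moved the difference in mRNA share from -9.65 to -9.94 percentage points.

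**Figure D5:**
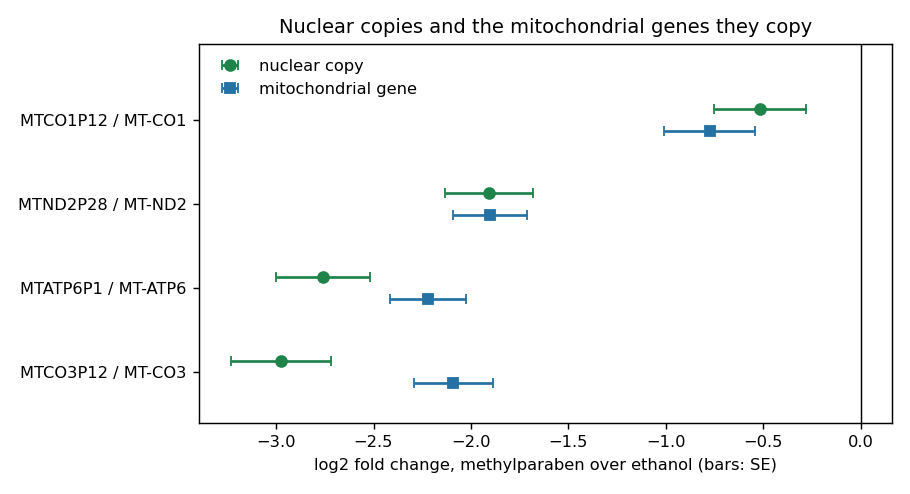
Points give the log2 fold change with its SE for the 4 nuclear copies with most counts (circles) and for the mitochondrial gene each copies (squares). All 8 values lie below 0, and MTCO1P12 and MT-CO1 have the smallest decreases.

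Nuclear genes that transcribe, process and translate mitochondrial RNA did not move as a block. Of 101 listed genes, 54 were tested, 13 rose and 8 fell. That is 21 of 54 called, a share near the 36.9% of all genes, and the median log2 fold change was -0.01. When ethanol replicate 1 or 2 was left out, fewer of them were called, and fewer of all tested genes too. POLRMT, the mitochondrial RNA polymerase, was listed at 0 in all libraries. TFAM, which packages mitochondrial DNA and opens its promoters, had 237 and 181 CPM with methylparaben and 303 and 321 CPM with ethanol, a log2 fold change of -0.57 ± 0.18 (adjusted p = 0.0337). That call was lost without ethanol replicate 1 (0.107), ethanol replicate 2 (0.175) or methylparaben replicate 2 (0.196). MTERF3, a transcription regulator of the same organelle, had 34 and 19 counts with methylparaben and 0 and 4 with ethanol (3.40 ± 0.84, adjusted p = 0.0115, and 0.0667 without ethanol replicate 1).

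Among 9 tested replication and maintenance genes 5 rose and 0 fell, where 18.5% of all tested genes rose and 18.4% fell. The counts of this list and of those that follow are descriptions with no test of the list. SLC25A36, a pyrimidine nucleotide carrier, had 362 and 330 CPM with methylparaben and 149 and 113 CPM with ethanol (1.40 ± 0.19, adjusted p = 0.000606). SSBP1, the single-stranded DNA binding protein, was at 2.41 ± 0.36 (adjusted p = 0.000973), and 97.6% of its reads lay on transcripts that retain an intron. The related carrier SLC25A33 was at 0.87 ± 0.22 (adjusted p = 0.0120, and 0.131 without ethanol replicate 1). POLG2, the accessory subunit of the DNA polymerase, was at 1.08 ± 0.26 (adjusted p = 0.00991, and 0.0512 without ethanol replicate 2), with 0 reads on protein-coding transcripts.

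Of 8 tested RNA processing genes 2 rose and 3 fell, against 18.5% higher and 18.4% lower over all tested genes. TRMT10C and KIAA0391, which are among the subunits of the RNase P that cuts the 5′ end of mitochondrial tRNAs, fell. HSD17B10 of the same list had 1 and 0 counts with methylparaben and 0 and 0 with ethanol and was not tested, so the complex was not measured as a whole. TRMT10C had 23.1 and 16.2 CPM with methylparaben and 42.1 and 52.8 CPM with ethanol (-1.25 ± 0.31, adjusted p = 0.0109, and 0.0541 without ethanol replicate 2). KIAA0391, the nuclease subunit, had 8.16 and 6.80 CPM with methylparaben and 41.7 and 19.5 CPM with ethanol (-2.01 ± 0.44, adjusted p = 0.00686, and 0.0823 without ethanol replicate 1). PTCD2, a pentatricopeptide protein, was at -0.83 ± 0.22 (adjusted p = 0.0144, and 0.0839 and 0.0619 without ethanol replicate 1 or 2), and ANGEL2, a phosphatase that acts on RNA ends, at 2.02 ± 0.40 (adjusted p = 0.00402), with 100% of its reads on a noncoding processed transcript.

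Of 6 tested genes for poly(A) addition, stability and decay 0 rose and 2 fell, a share called near the 36.9% of all tested genes. GRSF1, an RNA-binding protein of mitochondrial RNA granules, had 7.89 and 6.28 CPM with methylparaben and 28.1 and 25.1 CPM with ethanol (-1.88 ± 0.37, adjusted p = 0.00401). PDE12, which removes poly(A) tails, was at -0.76 ± 0.21 (adjusted p = 0.0181, with 0.0508, 0.147 and 0.0531 without ethanol replicate 1, ethanol replicate 2 and methylparaben replicate 2). LRPPRC, which stabilises mitochondrial mRNAs, had 946 and 889 CPM with methylparaben and 873 and 809 CPM with ethanol (0.13 ± 0.16, adjusted p = 0.564). MTPAP, the mitochondrial poly(A) polymerase, had 22 and 8 counts with methylparaben and 9 and 12 with ethanol (0.21 ± 0.56, adjusted p = 0.804).

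For rRNA modification and ribosome assembly 2 of 12 tested genes rose and 0 fell, against 18.5% higher and 18.4% lower over all tested genes. NOA1, a GTPase, was at 0.89 ± 0.18 (adjusted p = 0.00486), and NSUN4, an rRNA methyltransferase with 99.8% of its reads on nonsense-mediated decay transcripts, at 0.85 ± 0.26 (adjusted p = 0.0291, and 0.201 without ethanol replicate 1). For tRNA modification 2 of 9 rose and 2 fell. TRMU, which thiolates tRNAs, was at -3.11 ± 0.43 (adjusted p = 0.000682) with 97.0% of its reads on a noncoding processed transcript. YRDC, which makes a threonyl-carbamoyl modification, was at 1.39 ± 0.24 (adjusted p = 0.00216). CDK5RAP1 was at 1.32 ± 0.31 (adjusted p = 0.00916, and 0.0633 without ethanol replicate 1) and 100% of its reads lay on intron-retaining transcripts. TRMT5 was at -0.70 ± 0.21 (adjusted p = 0.0275, with 0.0621, 0.206 and 0.0977 without ethanol replicate 1, ethanol replicate 2 and methylparaben replicate 2). Of 6 tested translation factors 1 rose and 0 fell, namely MRRF, the ribosome recycling factor, at 1.49 ± 0.29 (adjusted p = 0.00366). Of the 21 called genes 8 stayed called without each library in turn, and 14 had at least 50% of their reads on protein-coding transcripts.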

How the data were processed

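Deposited values are unnormalised read counts for each transcript and FPKM values with log2 of FPKM plus 1, per the file headers. The deposited table also gives a p-value per transcript of the authors' own comparison, which was quoted only for the members. No source used here names the aligner or counter; the submitters' processing notes name GRCh38, DESeq2, limma and edgeR without roles. All 206601 transcripts lie where GENCODE release 29 has them. None of 70749 transcripts without a base of their own had a read.

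Counts were joined by transcript identifier without its version and summed per gene. filterByExpr (minimum count 10, minimum total 15) left 8055 genes, which were scaled with TMM factors and tested with edgeR 4.0.16 in R 4.3.3 (quasi-likelihood F-test, two-sided). SE is the log2 fold change over the square root of F. DESeq2 1.42.0 and limma 3.58.1 were alternatives. Counts differed between libraries of a group by more than sampling noise (chi-square per degree of freedom 13.5 for methylparaben and 5.34 for ethanol). Library totals were 2068486 to 3760982 counts.

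Members, gene lists and tests were chosen with earlier results of these data known. Named were all mRNAs, both rRNAs, tested tRNAs, the 4 nuclear copies with most counts, and up to 4 called genes of each nuclear list by smallest p, with POLRMT, TFAM, LRPPRC and MTPAP.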

Additional observations from a re-analysis of the deposited data

How the results depend on the processing

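Under the other scalings, including scaling by nuclear genes alone, DESeq2, limma voom, other filters and counts per transcript, 12 or 13 of the 13 mRNAs were lower and 0 higher, both rRNAs were higher, and MT-TP was higher. With limma on log2(FPKM + 1), 10 mRNAs were lower, and on log2(FPKM + 0.1), 7, with 7 nuclear genes higher and 3 lower, while on log2(FPKM + 1) 5 nuclear genes were lower. Leaving out each library gave 9 to 13 mRNAs lower, a median log2 fold change from -1.50 to -1.15, 1 to 6 mRNAs below and 0 to 2 above the mRNA total, and 7 to 13 nuclear genes higher and 3 to 8 lower. The number of all tested genes called also changed with the library left out. With HSPA5 left out of the totals, the rRNA share differed by 6.21 instead of 5.71 percentage points. The fit on counts per transcript covered nuclear transcripts too, but the listed nuclear genes were not counted in it. The cause of these shifts was not tested. No direction of a tested mitochondrial gene reversed under the 17 alternatives run for it, which do not include the scaling to the mRNA total.

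Same-numbered libraries share only a number. Their deviations correlated at -0.150 over 8055 genes. With the replicate number as a block 12 mRNAs, both rRNAs and MT-TP kept their direction and call, with 2488 instead of 2976 genes called. A crossed pairing, added after the data were seen as was the scaling to the mRNA total, called 13 mRNAs and 3292 genes. DESeq2 called 2251 genes, limma on log2(FPKM + 0.1) 1481 and on log2(FPKM + 1) 1985, and 1677 were called without ethanol replicate 1.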
